A study of Homo sapiens with 27 samples.

Results

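The BCL2 family of apoptosis regulators was followed at the RNA level in human cell lines that carry different forms of ARID1A. The 10 genes were chosen by symbol from both tables of raw counts, and all 10 were found among 67130 rows. They comprise the pro-survival genes BCL2, BCL2L1 and MCL1, the effectors BAX and BAK1, the BH3-only genes BID, BBC3, PMAIP1 and BCL2L11, and BNIP1. All 10 members passed the filter on low counts in every comparison.

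BCL2 family proteins meet at the outer membrane of mitochondria. BAX and BAK1 form pores there that release cytochrome c and start the caspase cascade, and the pro-survival proteins hold them in check. BH3-only proteins respond to stress, and they either neutralise the pro-survival proteins or activate the effectors directly. Several BH3-only genes are known to be switched on at the level of transcription, BBC3 (PUMA) and PMAIP1 (NOXA) among them, whereas MCL1 is known for a short protein half-life.

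RNA was sequenced from 27 libraries in 9 groups of 3, and in every group the ARID1A gene, which encodes a subunit of the BAF chromatin remodelling complex, had been knocked out. The 18 libraries labelled 293T (a kidney epithelial line) were knockout cells alone (KO) or knockout cells overexpressing Flag-tagged ARID1A as wild type (WT) or with a single substitution (K2025E, V2084D, G2087E or G2087R). The 9 libraries labelled Huh7 (a hepatocellular carcinoma line) were knockout cells overexpressing Flag-tagged WT, Flag-tagged V2084D, or Flag-tagged V2084D with knockdown of STUB1 (V2084D with shSTUB1). By the treatment protocol, ARID1A was delivered by lentivirus and stably expressed, but the protocol given for the samples labelled 293T describes Huh7 cells. The Huh7 set has no group of knockout cells alone. The labels do not say whether groups were clones or replicates separate cultures. Each p-value thus reflects no more than how these libraries vary, which may be technical.

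Facts of the whole series bear on the values below. The 18 libraries of the first set held 33429483 to 55539529 counts in all, and the 9 of the second held 59124374 to 79915177. ARID1A, read first as the check of the labels, had 119 to 194 CPM (counts scaled to library size, with TMM factors) in KO. It had 13598 to 116307 CPM in V2084D, G2087E and K2025E, and 5727, 9391 and 63182 CPM in WT. Libraries 1 and 2 labelled G2087R had 294 and 326 CPM, near the KO level and against their label, while library 3 had 68482 CPM. All 9 libraries labelled Huh7 had 187 to 389.9 CPM, as low as those 2 libraries although their labels give overexpression, and no knockout cells alone were there to compare them with. ARID1A was 0.55 lower on the log2 scale in V2084D than in WT under the label Huh7 (SE 0.183, edgeR adjusted p 0.0325). STUB1 fell by 1.85 on the log2 scale with shSTUB1 (SE 0.103, edgeR adjusted p 8.78e-06), from 247, 247 and 290.2 CPM to 69.4, 83.3 and 65.9 CPM. In the libraries labelled Huh7 only 2 of 20 liver genes, GPC3 and CPS1, reached 10 CPM in any library, the defining marker ALB averaged 0.622 CPM and AFP 0.0119 CPM, so the markers of the labelled cell type were at or near 0 with those 2 exceptions. Both exceptions were present under the label 293T too. CPS1 averaged 36.6 CPM there and 26.1 CPM under Huh7, and GPC3 averaged 10.4 and 19 CPM. Genes typical of embryonic kidney lines were present under both labels, and 0 of 6 lymphoid genes reached 10 CPM in any library. K2025E libraries 2 and 3 stood apart, with 104 and 66.6 on a first principal component where the other libraries labelled 293T lay between -47.8 and 40.2.

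The upstream sequence is shown for the 3 members with the largest log2 differences between V2084D and WT in the libraries labelled Huh7, since the values below turn on them. The windows are RefSeq promoters on GRCh38.p14 (250 bases before to 50 after a gene's start), cut so that they end before the first annotated base of the gene in GENCODE 29. Capitals mark matches, read on both strands, to 3 motifs. One is the E-box, whose letters are CACGTG. Another is the CRE half-site, spelled TGACG and matched on the opposite strand in PMAIP1. The last is the AP-1 site, for which the letters searched were TGAGTCA. They lie at chr18:59899746-59899947 on the plus strand for PMAIP1, chr19:47232767-47232917 on the minus strand for BBC3 and chr19:48954625-48954814 on the plus strand for BAX.
PMAIP1: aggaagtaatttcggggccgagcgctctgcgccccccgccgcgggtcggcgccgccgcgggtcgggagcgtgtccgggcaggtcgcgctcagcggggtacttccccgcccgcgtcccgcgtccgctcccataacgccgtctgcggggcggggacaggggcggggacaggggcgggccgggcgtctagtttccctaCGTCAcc
BBC3: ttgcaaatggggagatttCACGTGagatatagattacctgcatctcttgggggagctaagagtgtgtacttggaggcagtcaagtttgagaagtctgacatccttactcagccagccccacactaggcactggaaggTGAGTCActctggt
BAX: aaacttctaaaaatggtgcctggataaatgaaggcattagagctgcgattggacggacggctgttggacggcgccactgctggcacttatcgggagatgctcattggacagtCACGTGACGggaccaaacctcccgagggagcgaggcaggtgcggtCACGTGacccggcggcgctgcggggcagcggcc

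The 3 stretches differed in composition, with 76.2% GC in PMAIP1, 49.0% in BBC3 and 61.1% in BAX. In the full window BAX held 4 E-boxes, 2 of them in the stretch printed, and 1 CRE half-site that shares bases with an E-box. BBC3 held 1 E-box and 1 AP-1 site, and PMAIP1 held 1 CRE half-site. Windows were found for 9 of the 10 members, all but MCL1, and 14 windows were searched on both strands. Among the other members, BNIP1 and 2 of the 5 windows of BID held an E-box, BCL2 and 1 of the 2 windows of BCL2L1 held a CRE half-site, and BAK1 held a heat shock element GAANNTTC. Over all 35116 windows of the same length, 7.26% held an E-box, 24.6% a CRE half-site, 4.95% the AP-1 site and 6.77% the heat shock element. A match is a description of the letters in a window and not of a bound site.

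The levels of the members spanned a wide range once divided by transcript length. In the libraries labelled 293T, PMAIP1 and MCL1 were highest, with medians of 53.6 and 53.4 CPM per kb, and BCL2 was lowest with 1.86 CPM per kb. Each member overlapped the next in that order (PMAIP1, MCL1, BAX, BNIP1, BAK1, BCL2L1, BID, BBC3, BCL2L11, BCL2) in its range over the 18 libraries. In the libraries labelled Huh7, PMAIP1 stood alone at a median of 289 CPM per kb, and its lowest library (183) was above the highest library of MCL1 (54.4). MCL1 came next (42.1 to 54.4), above all libraries of BAK1 but overlapping BAX, whose range reached 50.3. In the order BAK1, BAX, BID, BCL2L1, BNIP1 and BBC3 each member overlapped the next. BCL2L11 (median 4.47) and BCL2 (1.91) came last, without overlap with their neighbours. Raw counts per library ran from 295 for BBC3 in a library labelled 293T to 57935 for PMAIP1 in one labelled Huh7, so none of the members was near the limit of detection.

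**Figure D1:**
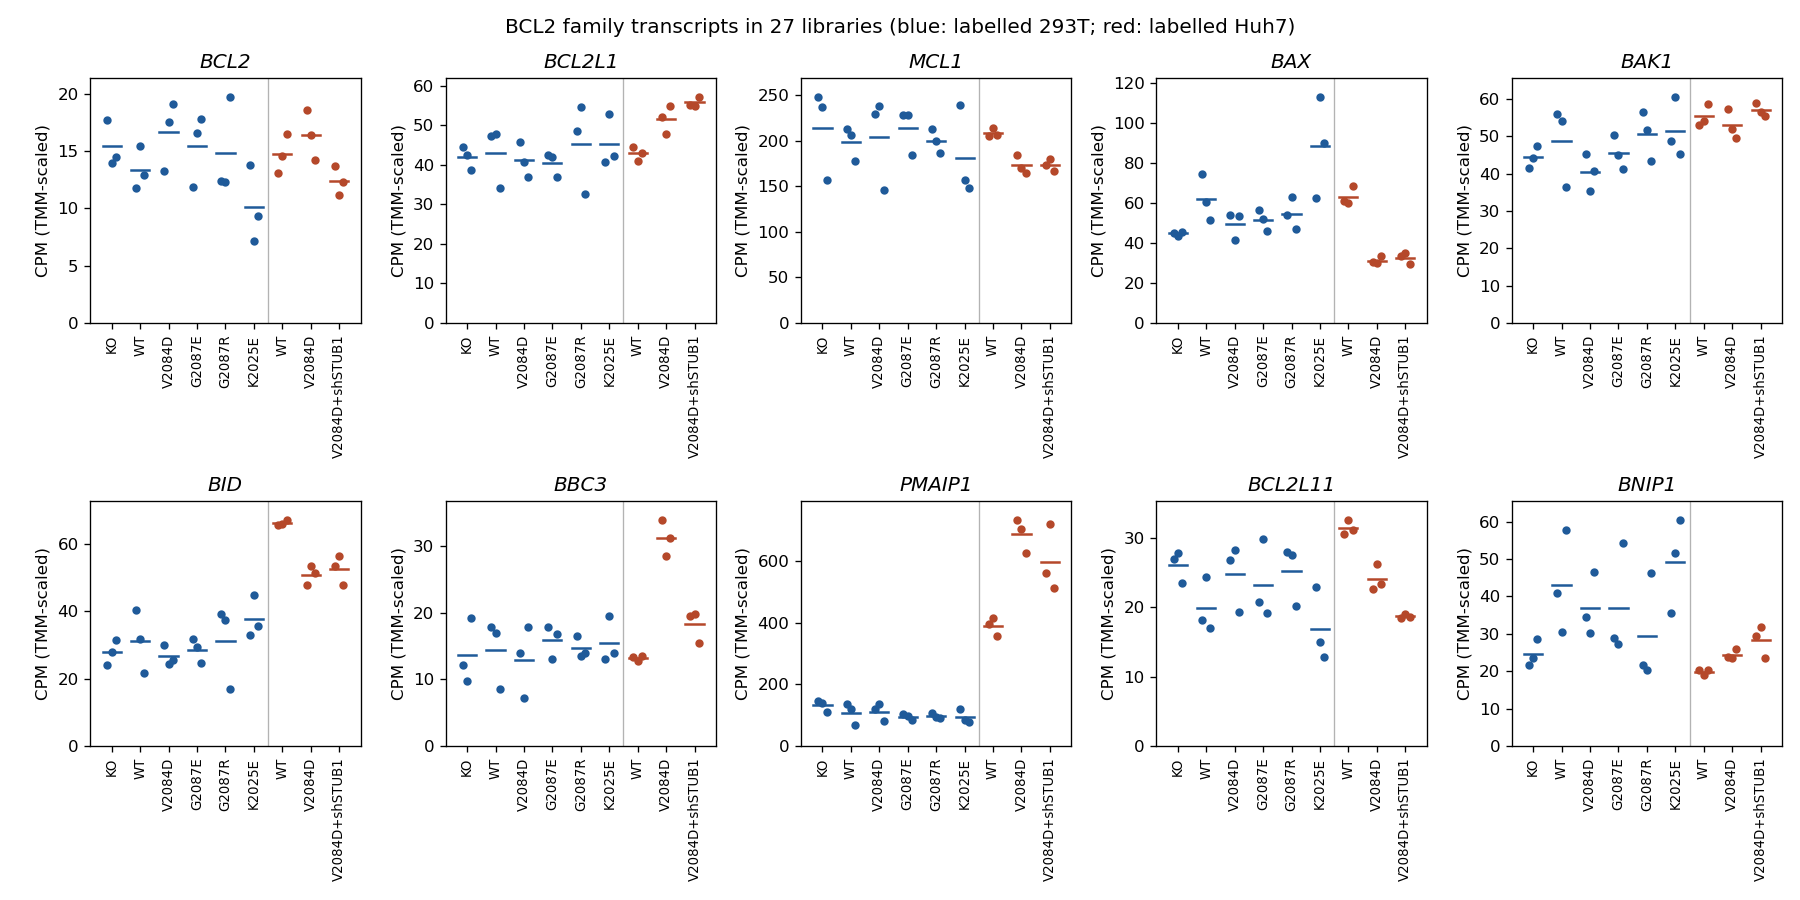
Level of each member in every library, in TMM-scaled CPM on linear axes that start at 0, with 1 point per library and a bar at the mean of 3 libraries; blue groups are labelled 293T and red groups Huh7. PMAIP1 in the red groups lies between 356 and 734 CPM and in the blue groups between 66.7 and 147 CPM, and BBC3 stands out in the V2084D group labelled Huh7.

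The widest differences in the family were seen in the libraries labelled Huh7 between V2084D and WT, the comparison that asks how the mutant differs from the wild-type protein. Directions here are between libraries labelled V2084D and WT, whose ARID1A levels (211 to 270 and 329 to 389.9 CPM) were about those of the 2 low G2087R libraries. There 7 of the 10 members were called at an adjusted p below 0.05, 3 higher and 4 lower in V2084D. For comparison, 42.0% of the 22510 genes tested were called, 22.0% being higher and 4491 genes lower. Calls were thus frequent among genes at large too. BBC3 and PMAIP1, 2 BH3-only genes, rose the most, BAX fell to 48.6% of its level in WT, and BID, BCL2L11 and MCL1 fell by less. The median log2 difference over the 10 members was 0.02, beside 0.03 over all genes, since higher and lower members balanced. In RNA from whole cultures, a change within each cell and a change in the share of cells with the transcript cannot be told apart.

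Among the pro-survival genes, BCL2L1 (ENSG00000171552, GRCh38 chromosome 20, 31664452 to 31723989, minus strand) encodes BCL-XL and, by splicing, a shorter form that counts per gene do not separate. It had 44.5, 41 and 43.1 CPM in WT and 52.1, 47.7 and 54.8 CPM in V2084D. All V2084D libraries were above all WT libraries. The log2 difference was 0.24 (SE 0.0704, edgeR adjusted p 0.0181), and it was 0.21 (edgeR adjusted p 0.0637), no longer called, without WT library 2. MCL1 (ENSG00000143384, chromosome 1, 150574551 to 150579738, minus strand), a pro-survival protein that binds BAK1 and NOXA, had 205, 214 and 207 CPM in WT against 184, 170 and 165 CPM in V2084D. The groups did not overlap, and MCL1 fell by 0.29 on the log2 scale (SE 0.0614, edgeR adjusted p 0.00275). BCL2 itself (ENSG00000171791, chromosome 18, 63123346 to 63320128, minus strand) had 13.1, 14.6 and 16.5 CPM in WT and 18.6, 16.4 and 14.2 CPM in V2084D. These ranges overlapped, and the log2 difference of 0.13 (SE 0.129, edgeR adjusted p 0.454) was about as large as its standard error.

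BAX and BAK1, the pore-forming effectors, differed from each other. BAX (ENSG00000087088, chromosome 19, 48954815 to 48961798, plus strand) had 61.1, 60.1 and 68.4 CPM in WT and 30.7, 29.8 and 33.3 CPM in V2084D. Every V2084D library was thus far below every WT library, and BAX fell by 1.04 on the log2 scale (SE 0.083, edgeR adjusted p 5.38e-06). BAK1 (ENSG00000030110, chromosome 6, 33572547 to 33580293, minus strand) had 53.1, 54.2 and 58.8 CPM in WT and 57.3, 52.1 and 49.7 CPM in V2084D. The BAK1 libraries were interleaved, with a log2 difference of -0.09 (SE 0.0702, edgeR adjusted p 0.353).

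Of the BH3-only genes, BBC3 (ENSG00000105327, chromosome 19, 47220822 to 47232766, minus strand) encodes PUMA, which binds all pro-survival proteins of the family. It had 13.4, 12.8 and 13.5 CPM in WT and 33.9, 28.5 and 31.3 CPM in V2084D. The 3 WT libraries were within 1 CPM of each other, and all V2084D libraries were more than 2 times as high, with a log2 difference of 1.21 (SE 0.11, edgeR adjusted p 1.2e-05). PMAIP1 (ENSG00000141682, chromosome 18, 59899948 to 59904306, plus strand) encodes NOXA, which binds mainly MCL1. Its level was 397, 417 and 356 CPM in WT and 734, 707 and 628 CPM in V2084D, with no overlap. PMAIP1 rose by 0.80 on the log2 scale (SE 0.116, edgeR adjusted p 0.000283). BID (ENSG00000015475, chromosome 22, 17734138 to 17774770, minus strand) is cleaved by caspase 8 and links death receptors to mitochondria. It had 65.7, 65.9 and 67 CPM in WT and 47.7, 53.5 and 51.2 CPM in V2084D, a fall by 0.41 on the log2 scale (SE 0.0718, edgeR adjusted p 0.000973).

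BCL2L11 (ENSG00000153094, chromosome 2, 111119378 to 111168447, plus strand) encodes BIM, an activator of BAX and BAK1, and its counts need care. It had 30.6, 32.6 and 31.2 CPM in WT and 22.6, 26.3 and 23.4 CPM in V2084D, a fall by 0.41 on the log2 scale (SE 0.0751, edgeR adjusted p 0.00124). The long non-coding gene MIR4435-2HG overlaps BCL2L11 on the opposite strand over 49070 bases, and the strand setting of the counting is not given in the sources used here. MIR4435-2HG had counts equal to 20.7% of those of BCL2L11 in WT and 48.5% in V2084D, and it rose by 0.83 on the log2 scale (SE 0.128, edgeR adjusted p 0.000426). How the reads of the pair were split is not known, so the values of BCL2L11 are uncertain. The overlapping genes measured for the other members had at most 2.04% of the member's counts. AL117381.1, annotated antisense to BCL2L1 over 30610 bases, was not found by symbol among the rows of counts. What its reads add to BCL2L1 is therefore not known. BNIP1 (ENSG00000113734, chromosome 5, 173144442 to 173164387, plus strand) is a SNARE protein of Golgi to ER transport that carries a BH3-like region. It had 20.3, 19 and 20.3 CPM in WT and 23.8, 23.5 and 25.9 CPM in V2084D. Its groups did not overlap, but the log2 difference of 0.27 (SE 0.107, edgeR adjusted p 0.0644) was not called.

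Other measures moved between the same groups. The summed level of the 13 genes typical of embryonic kidney lines was 797 to 831 CPM in WT and 362 to 399 CPM in V2084D. IRS4, an adaptor of growth factor signalling and the most abundant of them, had 431 to 463 CPM in WT and 15.2 to 21.6 CPM in V2084D. The sum of the other 12 genes overlapped, with 366 to 377 CPM in WT and 346 to 377 CPM in V2084D. The median log2 deviation of GC-rich genes minus that of GC-poor genes was 0.16 to 0.42 in WT and -0.13 to 0.08 in V2084D. With offsets for GC content and transcript length in the test, the log2 difference was -0.98 for BAX, 1.15 for BBC3 and 0.51 for PMAIP1 (edgeR adjusted p 0.000509), so that of PMAIP1, whose transcript has 37.2% GC, was smaller by more than 1.5 times. The part of the marker genes in the results was not tested.

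Knockdown of STUB1, a ubiquitin ligase that works with chaperones, was compared with V2084D alone. The sample titles name no control hairpin for V2084D alone. Going by them, effects of STUB1 loss and of carrying a hairpin cannot be told apart. Here 3 of the 10 members were called and all 3 were lower with shSTUB1, where 21.5% of the genes tested were called, 10.8% higher and 10.8% lower. BBC3 had 19.5, 19.8 and 15.5 CPM with shSTUB1, below every V2084D library, a fall by 0.78 on the log2 scale (SE 0.108, edgeR adjusted p 0.000861). BCL2L11 had 18.5, 19.1 and 18.6 CPM, also below every V2084D library, a fall by 0.37 (SE 0.0753, edgeR adjusted p 0.00656). Its opposite-strand neighbour MIR4435-2HG had counts equal to 79.2% of those of BCL2L11 in this group. BCL2 had 13.7, 11.2 and 12.3 CPM, a fall by 0.41 (SE 0.13, edgeR adjusted p 0.0475). The call for BCL2 was lost without filtering (0.0807), with only the compared groups in the fit (0.0662), with GC and length offsets (0.0703) and without any 1 of 5 of the 6 libraries, the exception being V2084D library 3. The smallest and largest of these 5 edgeR adjusted p were 0.0613 and 0.189.

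The other 7 members were not called with shSTUB1 against V2084D. BAX was below its WT range, with 33.3, 35 and 29.3 CPM and a log2 difference of 0.06 (SE 0.0824, edgeR adjusted p 0.701) that lies close to 0. PMAIP1 had 563, 722 and 513 CPM, a range that overlapped that of V2084D, with a log2 difference of -0.20 (SE 0.115, edgeR adjusted p 0.252). With GC and length offsets the difference of PMAIP1 became -0.38 (edgeR adjusted p 0.00722). The log2 differences of BCL2L1, MCL1, BAK1, BID and BNIP1 lay between 0.001 for MCL1 and 0.21 for BNIP1.

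Against WT, the libraries with V2084D and shSTUB1 had 8 of 10 members called, 4 higher and 4 lower, where 45.1% of genes were called, 23.5% higher and 21.7% lower. This comparison shares its WT libraries with V2084D minus WT and its shSTUB1 libraries with the comparison above, so the 3 are not independent. BAX was lower, at a log2 difference of -0.98 (SE 0.0828, edgeR adjusted p 6.34e-06), as was BCL2L11, at -0.78 (SE 0.0755, edgeR adjusted p 1.62e-05). BBC3 was 0.43 higher than in WT (SE 0.109, edgeR adjusted p 0.0077), with all 3 libraries between the WT and the V2084D libraries. PMAIP1 was 0.59 higher (SE 0.115, edgeR adjusted p 0.00173), but 0.13 (edgeR adjusted p 0.239) with GC and length offsets. BCL2L1 was 0.35 higher and BNIP1 0.48 higher, MCL1 fell by 0.29 and BID by 0.36, all called, while BCL2 (-0.27) and BAK1 (0.01) were not. IRS4 had 14.4 to 23.5 CPM with shSTUB1, and the sum of the other 12 genes typical of embryonic kidney lines was 308 to 340.4 CPM, below the 366 to 377 CPM of WT.

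**Figure D2:**
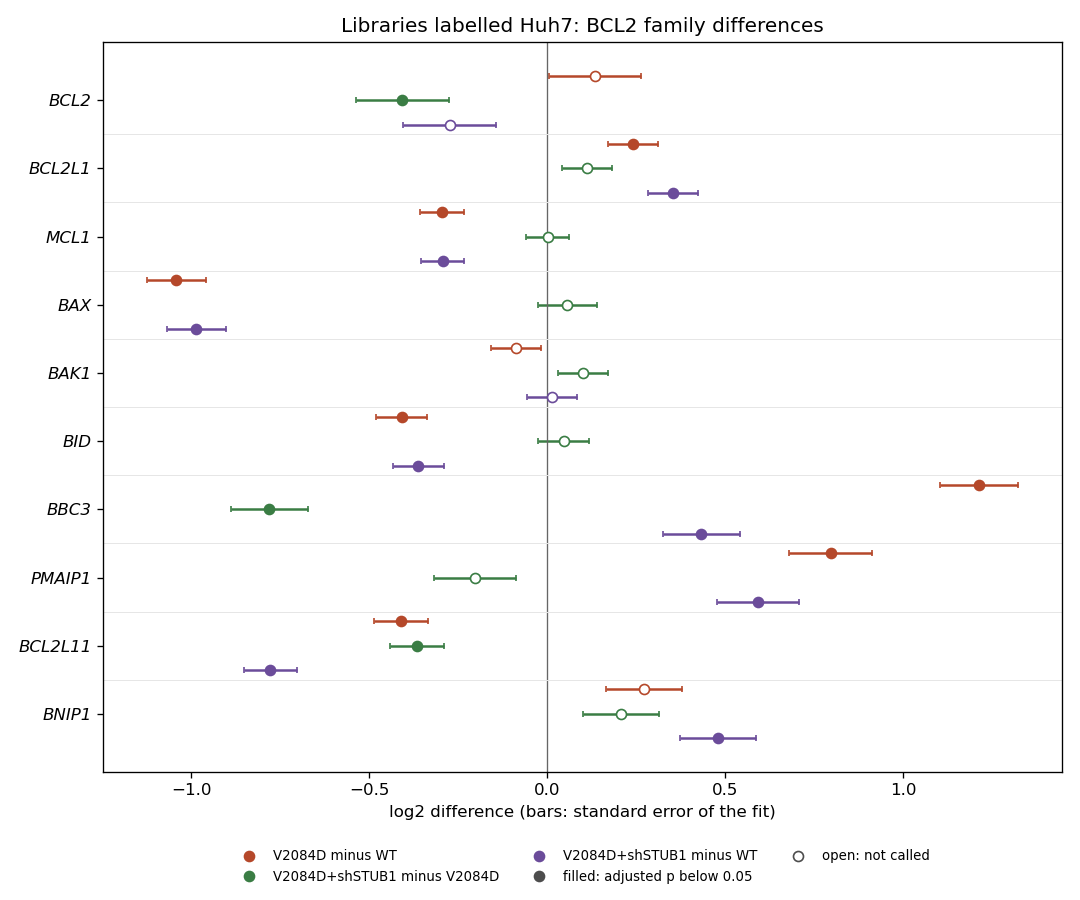
Log2 difference of each member in the 3 comparisons of the libraries labelled Huh7, with the standard error of the fit as bars and filled points for adjusted p below 0.05. BAX lies near -1 in both comparisons with WT and at 0.06 between shSTUB1 and V2084D, whereas BBC3 lies at 1.21, -0.78 and 0.43.

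In the libraries labelled 293T, the family was tested in 5 forms of ARID1A against KO and in 4 mutants against WT. With edgeR, 0 of 10 members were called for WT, V2084D, G2087E and G2087R minus KO, where 0% of the 23201 genes tested were called. DESeq2 also called 0 members in each. With edgeR, ARID1A itself was not called in these comparisons, at log2 differences of 7.457, 8.887, 8.667 and 7.278. Its edgeR adjusted p were 0.343, 0.468, 0.537 and 0.973. The lack of calls there thus does not show that the members were unchanged. At an unadjusted p below 0.05 the number of members was 2 for WT minus KO (BAX and BNIP1) and 0 for V2084D, G2087E and G2087R minus KO, beside 2544, 1120, 1314 and 1001 of all genes. For V2084D, G2087E, G2087R and K2025E minus WT, 0 members were called by either tool. All genes called there made up 0%, 0%, 0.00431% and 0.00431%. At an unadjusted p below 0.05, 1 member (BAX, K2025E) and 467, 475, 1032 and 1919 of all genes passed. Libraries 1 and 2 labelled G2087R had ARID1A near the KO level, so the G2087R values describe libraries with unequal ARID1A.

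K2025E minus KO was the comparison labelled 293T with a call. BAX was the 1 member of 10 called, and it was higher, where 12.9% of genes were called, 7.17% higher and 5.72% lower. That background rested on single libraries, since of 2989 genes called 1 was left without K2025E library 2, 618 without K2025E library 3, 951 without KO library 2 and 1078 without KO library 1, and 5270 were called without K2025E library 1. BAX had 45.2, 43.6 and 45.6 CPM in KO and 62.6, 113 and 90.2 CPM in K2025E. All K2025E libraries were above all KO libraries, though they varied widely among themselves, and BAX rose by 0.99 on the log2 scale (SE 0.202, edgeR adjusted p 0.00752). Without K2025E library 2 the difference was 0.75 (edgeR adjusted p 0.0726), and with only the 2 compared groups in the fit it was 0.96 (edgeR adjusted p 0.0511), neither of them called. With GC and length offsets BAX was 0.34 higher (edgeR adjusted p 0.0341), a difference more than 1.5 times smaller.

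Several library measures moved with K2025E. Transcripts of ribosomal protein genes made up 7.55%, 11.4% and 11.1% of counts in K2025E and 5.73% to 5.91% in KO. The GC measure was -0.07, 1.02 and 0.27 in K2025E and -0.55, -0.51 and 0.2 in KO. Over the 18 libraries labelled 293T, the level of BAX had a Pearson r of 0.795 with the GC measure, BID 0.825, BAK1 0.806 and BCL2 -0.747. For BBC3 the r was 0.727 and for BCL2L1 0.636. The remaining members had -0.465 (MCL1), -0.369 (BCL2L11), -0.302 (PMAIP1) and 0.078 (BNIP1). These r describe libraries that share groups and a library preparation. The part of these measures in the difference was not tested beyond the offsets.

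The other members in K2025E minus KO are given as values, since edgeR called none of them. DESeq2 called BNIP1 (adjusted p 0.0177) and BCL2L11 (adjusted p 0.0357). BNIP1 had 21.6, 23.5 and 28.7 CPM in KO and 35.5, 51.6 and 60.4 CPM in K2025E, without overlap, with a log2 difference of 1.0 (SE 0.334, edgeR adjusted p 0.0547). BCL2L11 had 27, 27.9 and 23.6 CPM in KO and 22.9, 15 and 12.9 CPM in K2025E, also without overlap, with a difference of -0.63 (SE 0.237, edgeR adjusted p 0.0859). BCL2 had 17.7, 14 and 14.5 CPM in KO and 13.8, 7.14 and 9.3 CPM in K2025E, with a difference of -0.61 (SE 0.253, edgeR adjusted p 0.118). Without K2025E library 1, BCL2, BCL2L11 and BNIP1 were called as well (edgeR adjusted p 0.0174, 0.0128 and 0.0223), at -0.91, -0.91 and 1.19. With GC and length offsets the differences were smaller by more than 1.5 times, at -0.17 for BCL2, -0.35 for BCL2L11 and 0.56 for BNIP1 (edgeR adjusted p 0.633, 0.301 and 0.286). The log2 differences of PMAIP1 (-0.49), MCL1 (-0.24), BCL2L1 (0.11), BBC3 (0.18), BAK1 (0.21) and BID (0.44) had standard errors of 0.179 to 0.317.

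**Figure D3:**
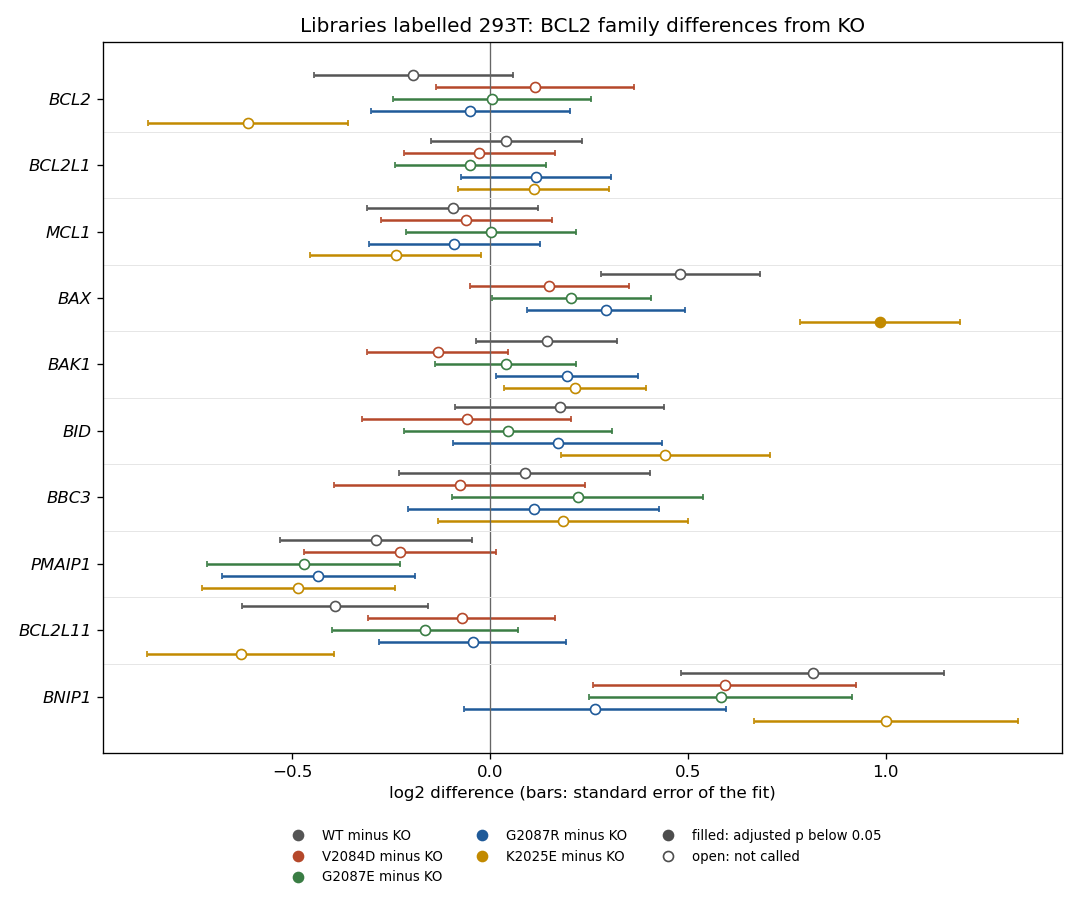
Log2 difference of each member between 5 forms of ARID1A and KO in the libraries labelled 293T, with the standard error of the fit as bars. The single filled point, with an adjusted p below 0.05, is BAX in K2025E at 0.99, and BNIP1 lies between 0.27 and 1.0 in the 5 comparisons, which share the KO libraries.

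BNIP1 was above KO on average in each of the other forms too, with log2 differences of 0.82 in WT, 0.59 in V2084D, 0.58 in G2087E and 0.27 in G2087R, and none was called. These comparisons share the KO libraries. The libraries numbered 3 were the highest in every group labelled 293T, with 57.8 CPM in WT, 46.6 CPM in V2084D, 54.4 CPM in G2087E and 46.2 CPM in G2087R, where libraries 1 and 2 had 20.3 to 41 CPM. PMAIP1 was below KO on average in all 5 forms, with log2 differences from -0.49 in K2025E to -0.23 in V2084D, and none was called. The libraries of G2087E and G2087R, at 83.3 to 106 CPM, all lay below the KO range of 109 to 147 CPM, while those of WT, V2084D and K2025E overlapped it.

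The V2084D minus WT difference was then compared between the 2 labels by an interaction test in a joint fit of all 27 libraries. BBC3 was the 1 member of 10 called, where 9.72% of the 24546 genes tested were called, 5.50% higher and 4.21% lower. In the libraries labelled 293T, BBC3 had 17.8, 17 and 8.53 CPM in WT and 13.9, 7.16 and 17.8 CPM in V2084D, fully interleaved, with a log2 difference of -0.17 (SE 0.317, edgeR adjusted p 1). The difference between the labels was 1.40 (SE 0.395, edgeR adjusted p 0.0246). It lost its call when any 1 of 7 libraries was left out, with 1.10 to 1.42 and edgeR adjusted p from 0.0509 to 0.0742. Those libraries were 293T WT 1 and 2, 293T V2084D 2, Huh7 V2084D 1 and each of the Huh7 WT libraries.

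For BAX the differences were -0.33 under the label 293T and -1.04 under Huh7, and the difference between them, -0.69 (SE 0.242, edgeR adjusted p 0.0749), was not called. It was called with GC and length offsets, at -0.80 (edgeR adjusted p 2.43e-05), and with DESeq2, at -0.71 (adjusted p 0.0326). For PMAIP1 the difference between labels was 0.76 (SE 0.306, edgeR adjusted p 0.126) and for BCL2L11 it was -0.71 (SE 0.285, edgeR adjusted p 0.125). The remaining 6 members had differences from -0.31 to 0.52, with standard errors of 0.212 to 0.409. The 2 sets differ in label, in total count and in the level of ARID1A, which cannot be told apart here.

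**Figure D4:**
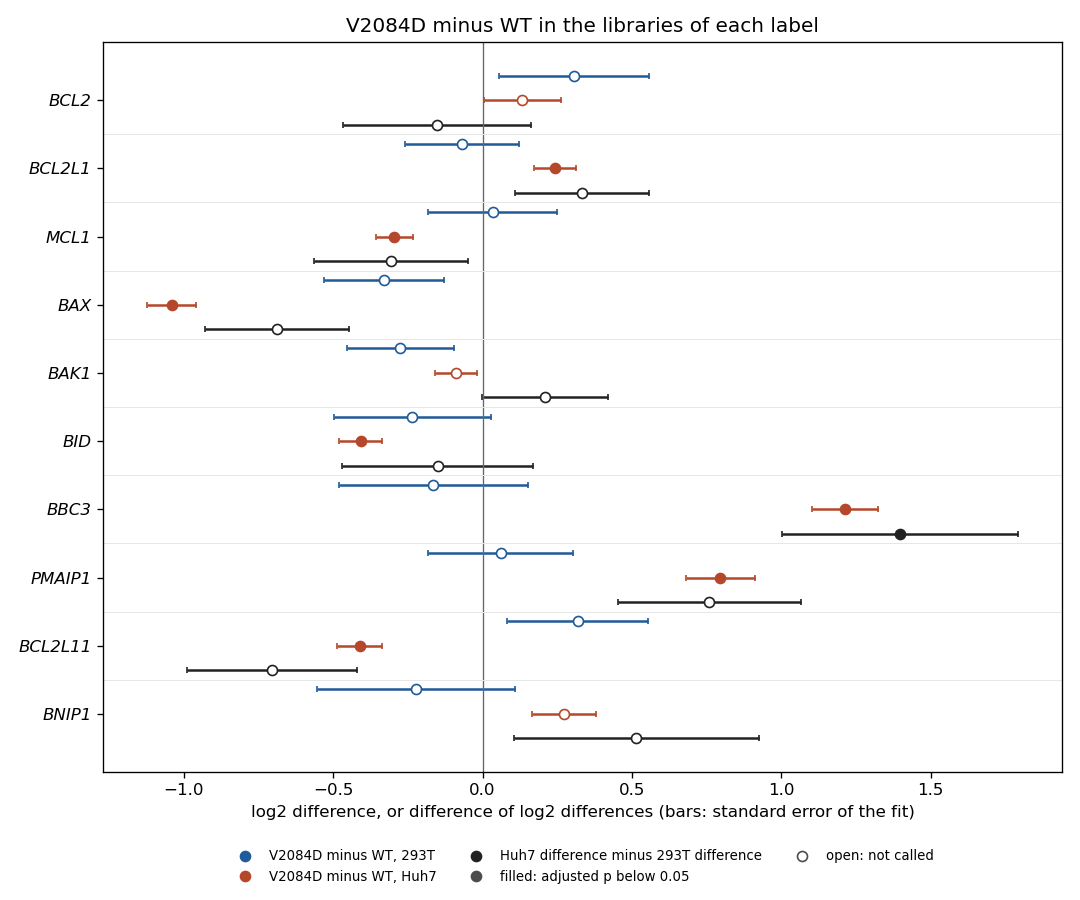
V2084D minus WT for each member in the libraries labelled 293T (blue) and Huh7 (red), and the difference between the 2 (black), with the standard error of the fit as bars. Bars are wider under the label 293T, and the only filled black point is BBC3 at 1.40.

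Genes that act beside the 10 members were counted from fixed lists. In the libraries labelled Huh7, V2084D minus WT, 8 of 13 tested genes among the other BCL2 family were called, 6 higher and 2 lower, where 42.0% of all genes were called, 22.0% higher and 4491 of 22510 lower. The median log2 difference was 0.36, beside 0.03 over all genes. HRK, a BH3-only gene known from neurons, rose by 2.16 on the log2 scale (edgeR adjusted p 5.85e-07). BNIP3L and BNIP3, which act in the removal of mitochondria, rose by 1.57 and 0.91, of which BNIP3 has a pseudogene copy and is uncertain. BCLAF1, a BCL2-associated nuclear protein, fell by 0.91. With shSTUB1 against V2084D, 5 of 13 were called, 2 higher and 3 lower (median -0.01), where 21.5% of all genes were called, 10.8% in each direction, among them BNIP3 (-1.31), BMF (-1.04), a BH3-only gene, and BNIP3L (-0.87).

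Downstream of the family, 14 of 23 genes of the apoptosome, caspases and their inhibitors were called in V2084D minus WT, 3 higher and 11 lower, with a median of -0.33, again beside 42.0% of all genes called. AIFM1, a mitochondrial flavoprotein, fell by 0.82, the caspase gene CASP2 by 0.65 and the adaptor gene FADD by 0.76. With shSTUB1 against V2084D, 4 were higher and 1 was lower (median 0.09, beside 21.5% of all genes called), including CASP8, the initiator caspase of death receptors, at 0.80, and VDAC1, a channel of the outer mitochondrial membrane, at -0.73. Of 9 tested death receptor genes, 1 was higher and 4 were lower in V2084D minus WT (median -0.31). Of all 22510 genes tested in that comparison, 22.0% were called higher and 4491 genes lower. RIPK1, a kinase of the receptor complex, fell by 0.50 and the adaptor gene TRADD by 0.83.

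Among 22 upstream regulators, 10 were higher and 4 were lower in V2084D minus WT (median 0.13, beside 22.0% of all genes called higher and 4491 of 22510 lower). JUN, a subunit of AP-1, rose by 2.44 (SE 0.137, edgeR adjusted p 6.73e-07). DDIT3, which encodes the stress factor CHOP, rose by 1.54, and FOXO3, a forkhead factor, rose by 0.84. With shSTUB1 against V2084D, 4 were higher and 6 were lower (median -0.08), beside 10.8% of all genes called in each direction. JUN was then lower by 1.40 and CDKN1A, a cell cycle inhibitor, by 0.91, while MDM2, a ubiquitin ligase, was 0.56 higher. Of the 6 partners of BNIP1 in the Golgi to ER SNARE complex, 0 were higher and 3 lower in V2084D minus WT (ZW10 -0.45, SEC22B -0.22, RINT1 -0.21). All genes called there were 22.0% higher and 4491 of 22510 lower. With shSTUB1 against V2084D, 3 of the 6 were higher and 0 lower, beside 10.8% of all genes called in each direction.

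In K2025E minus KO under the label 293T, 2 of 13 other family genes were called, where 12.9% of all genes were called, and both were higher: BAD, a BH3-only gene, by 1.35 and BCL2L12 by 1.12. Of the apoptosome list 4 were higher and 2 were lower, of the regulators 2 higher and 4 lower, of the 10 tested death receptor genes 0 higher and 1 lower, and of the SNARE list 1 higher (USE1, 0.88). ATF4, a factor of the integrated stress response, was 0.86 higher, and FOXO1 and FOXO3 were lower by 1.09 and 1.08. The list medians lay between -0.18 and 0.06, beside -0.03 over all genes.

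The genes most like each member over the 18 libraries labelled 293T were named by the highest Pearson r of log2 CPM among 12548 protein-coding genes, as a description. BAX was most like LSM4 (r = 0.981), an RNA-binding Sm-like protein, and RPS21 (r = 0.978), a ribosomal protein. BNIP1 was most like SELENOS (r = 0.98), a selenoprotein of the ER, and SLC35B1 (r = 0.971), a nucleotide transporter of the ER. PMAIP1 was nearest to DEPDC7 (r = 0.926). BID was nearest to BTBD6 and DOK1 (both r = 0.961), BCL2L11 to TRIM24 (r = 0.956) and BCL2 to HECA (r = 0.945). The 18 points share libraries, depth and the GC measure, and for BAX, BID and BAK1 the r with the GC measure alone was 0.795, 0.825 and 0.806.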

How the data were processed

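The values are raw counts per gene that the authors deposited for 27 libraries. The submitters' processing notes name GRCh38 and edgeR, with no version of the latter; aligner, counting tool, annotation and strand setting are not given in the sources used here. Per the labels' protocols, Trizol and miRNeasy columns gave total RNA for NEBNext Ultra II RNA libraries, and no molecular identifiers are named. All columns matched a sample (0 columns of other samples).

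From the deposited counts, edgeR 4.0.16 in R 4.3.3 was used for testing (TMM factors, quasi-likelihood F test, filterByExpr with a minimum count of 10 and a minimum total of 15) in 1 fit per label, 23201 genes for 293T and 22510 for Huh7, and in a joint fit of 24546 genes for the interaction. Biological coefficients of variation were 30.9%, 24.8% and 30.3%. P-values were adjusted over all genes by Benjamini-Hochberg, and a gene was called below 0.05. A standard error (SE) is the size of the log2 difference over the root of its F statistic. CPM levels are from the joint TMM scaling, and levels per kb use the longest GENCODE 29 transcript. Between 2 libraries of a group the chi-square per degree of freedom was 11.7 to 345 (27 pairs, 1 being counting noise alone), so none was a copy and the spread between libraries, not depth, sets the precision.

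The members, the lists and the rules were chosen with earlier results of these data known. Named are the 10 members, ARID1A, STUB1, up to 4 called genes per list and comparison by smallest adjusted p, and, of the 2 protein-coding genes most like each member, those printed. Some genes these rules name are not reported here. Same-numbered libraries deviated together (every r over 0.1) in 1 of 12 comparisons, G2087R minus WT, so the fits have no replicate block, and the block is an alternative. Comparisons with KO share the KO libraries, and those with WT share the WT libraries. Alternatives were DESeq2 1.42.0, RLE size factors, other filters, the block, only the compared groups, each library left out, libraries that stand apart left out, and a log2 difference of at least 1. Offsets for GC content and transcript length (splines, known for 97.7% of 293T and 97.9% of Huh7 genes), alone or with the block, were added after seeing the data. The test was checked on simulated counts with the measured spread of each gene, drawn independently for each gene and library. Shifts shared by many genes of a library, such as those in the GC measure, were not simulated. The recovery that follows holds for such counts and may not hold for the deposited ones. Of 100 genes changed 2-fold, 55 were called in the right direction for K2025E minus KO and 90 for V2084D minus WT labelled Huh7. Of 100 changed 4-fold, 98 and 100 were. Calls among unchanged genes numbered 6 and 10. A 2-fold difference can thus go uncalled, more often under the label 293T.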

Additional observations from a re-analysis of the deposited data

Results flagged for a closer look

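BBC3 drew attention because its V2084D minus WT difference was not the same under the 2 cell line labels. The interaction test gave 1.40 on the log2 scale (SE 0.395, edgeR adjusted p 0.0246), from a rise in all 3 V2084D libraries labelled Huh7 and interleaved libraries labelled 293T. DESeq2 gave an adjusted p of 0.00664 for BBC3. The BBC3 difference was called in 15 of 22 alternatives. With 1 library left out, its edgeR adjusted p reached 0.0742.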

How the results depend on the processing

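Of the 13 counts of called members, those of 7 comparisons labelled 293T stayed at 0 in every alternative: WT, V2084D, G2087E and G2087R minus KO, and V2084D, G2087E and G2087R minus WT. For K2025E minus KO (1 called), DESeq2 gave 3, the replicate block 3, GC and length offsets with the block 4, only the compared groups 0, leaving out the 2 G2087R libraries with little ARID1A 2, a log2 difference of at least 1 gave 0, and leaving out 1 library gave 0 to 4. K2025E minus WT gave 0 to 1 with 1 library left out. Under the label Huh7, a log2 difference of at least 1 left 2 members in V2084D minus WT, 0 in shSTUB1 minus V2084D and 0 in shSTUB1 minus WT, and leaving out 1 library gave 6 to 7, 2 to 3 and 8 to 8. BNIP1, not called in V2084D minus WT, was called there in 2 of 14 alternatives. For shSTUB1 minus V2084D, PMAIP1 was called in 3 of 14, BNIP1 in 1 and BCL2 in only 4. For the difference between labels (1 called), DESeq2 gave 2, the replicate block 3, GC and length offsets 2, the offsets with the block 4, only the compared groups 2, leaving out K2025E libraries 2 and 3 gave 2, and leaving out 1 library 0 to 2. The causes were not tested. Of 461 alternative values for the 30 of 130 member differences with an unadjusted p below 0.05, 0 reversed, 22 lost their call and 24 gained one. For the other 100 differences, 160 of 1599 values changed sign, in 54 differences, and 6 were called. With the block the members gained in K2025E minus KO were BNIP1 and BCL2L11 (edgeR adjusted p 0.00802 and 0.0277). The block also ended the call of BCL2 in shSTUB1 minus V2084D (edgeR adjusted p 0.0821). By their labels, same-numbered libraries share only a number, though BNIP1 was highest in the libraries numbered 3 in every group labelled 293T. All genes called in K2025E minus KO were 2989, 4527 with DESeq2, 436 with only the compared groups and 1 to 5270 with 1 library left out, and in the other 8 comparisons labelled 293T (0 or 1 called) DESeq2 called 14 to 70 and the offsets with the block up to 314. K2025E minus WT went from 1 to 1048 genes without K2025E library 1. For the difference between labels they were 2385, 4383 with offsets and 5534 with offsets and block. Depth limits none of the members, whose counts were 295 or more.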
